A study of Mus musculus with 18 samples.

Results

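Kruppel-like factors are zinc finger transcription factors that bind GC-rich boxes and CACCC boxes in promoters, some as activators and some as repressors. Described here are 6 of them, Klf2, Klf3, Klf4, Klf6, Klf10 and Klf13, out of the 34162 mouse genes in the deposited table. They were chosen by name, from a list drawn up with the organ and genotype values of these libraries already known, and how each was picked is not recorded. The organ and genotype values of these 6 genes are therefore given as a description. Where a member is said to pass a threshold, that is part of the description and no evidence of a difference by itself. All 6 were among the 14876 genes that passed a filter on low counts.

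In T cells this family is known for keeping resting cells quiet and for steering where they go. Klf2 is the best studied member. It is switched on by the transcription factor Foxo1, lost after strong antigen receptor signalling, and drives the exit receptor S1pr1. Klf4 slows proliferation in lymphocytes and is also a differentiation factor of monocytes and gut epithelium. Klf6 is a broadly expressed activator, Klf10 is induced by TGF-beta, Klf3 represses genes through the corepressor CtBP, and Klf13 was found in human T cells as an activator of the chemokine gene CCL5.

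The libraries came from CD4+ effector T cells sorted 3 weeks after transfer into Rag-deficient mice, hosts without T and B lymphocytes, at about 500 cells per library. The transferred cells were C57BL/6 and either lacked CAR, the xenobiotic-sensing nuclear receptor encoded by Nr1i3, or were wild type and carried the CD45.1 marker. Each genotype was sampled in 3 organs, the small intestinal lamina propria (siLP), the colonic lamina propria (cLP) and the spleen, with 3 libraries in each of the 6 groups and 18 in all. The libraries of a group are called a, b and c. The labels do not say whether these 3 came from separate hosts, so the errors below measure the spread between libraries, which may be partly technical.

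Total estimated counts ran from 19605316 to 25436582 per library. The 6 a libraries stood apart in every group, with 15466 to 16128 genes detected and 3.70 to 3.98% mitochondrial counts, against 17013 to 18819 genes and 2.23 to 3.22% in the other 12. The targeted gene, Nr1i3, lay between 0 and 9.49 CPM in the 9 libraries labelled CAR-deficient and between 0 and 1.66 CPM in the 9 labelled wild type. Which part of Nr1i3 was deleted is not given in the sources used here, so these counts do not check the genotype labels, and every genotype direction below rests on the labels alone. The 7 CD4 T cell markers summed to 5989.5 to 14219.3 CPM over the 18 libraries.

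The 250 bases before the RefSeq start are shown for the 3 members with the highest level or the widest organ difference. The motif marked in each was picked from a larger set that was scanned, and is not particular to that gene. The sequences are from RefSeq on GRCm38.p6, in which 5 of the 6 members, all but Klf10, were matched. Klf2 lies on the plus strand with its window at chr8:72318812-72319061, Klf4 on the minus strand at chr4:55532476-55532725, and Klf6 on the plus strand at chr13:5861239-5861488. RefSeq starts differ from the GENCODE vM21 starts given below. The Klf2 and Klf6 windows run past the latter, at 72319033 and 5861482. Capitals mark a MEF2 site in Klf2, GC boxes (GGGCGG on either strand) in Klf4 and CCAAT boxes (CCAAT on either strand) in Klf6.
Klf2: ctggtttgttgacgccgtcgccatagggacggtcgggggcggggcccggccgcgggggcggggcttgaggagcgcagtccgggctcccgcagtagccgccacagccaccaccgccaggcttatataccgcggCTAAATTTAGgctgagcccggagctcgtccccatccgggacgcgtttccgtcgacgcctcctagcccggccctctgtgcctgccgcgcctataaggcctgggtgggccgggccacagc
Klf4: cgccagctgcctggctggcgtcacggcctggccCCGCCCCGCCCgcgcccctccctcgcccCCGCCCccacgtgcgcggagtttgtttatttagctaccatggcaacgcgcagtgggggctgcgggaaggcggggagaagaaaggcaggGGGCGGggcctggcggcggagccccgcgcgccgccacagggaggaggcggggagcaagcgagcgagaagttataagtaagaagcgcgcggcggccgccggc
Klf6: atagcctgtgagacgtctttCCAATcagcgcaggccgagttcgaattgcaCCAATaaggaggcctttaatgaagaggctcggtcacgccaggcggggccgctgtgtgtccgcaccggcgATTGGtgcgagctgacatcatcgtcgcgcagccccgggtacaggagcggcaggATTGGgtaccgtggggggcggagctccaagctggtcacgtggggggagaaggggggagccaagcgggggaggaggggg
The Klf2 window held 1 MEF2 site, which 0.508% of the 32851 windows of the same length held, and 2 GC boxes. The Klf4 window held 4 GC boxes, 2 of which overlap, and 32.7% of all windows held at least 1. The Klf6 window held 4 CCAAT boxes and 1 GC box, and 33.8% of all windows held a CCAAT box. In the windows not shown, Klf3 held 6 GC boxes, and Klf13 held 3 GC boxes and 2 CCAAT boxes. The CACCC box, held by 52% of all windows, had 5 matches in Klf3, 1 each in Klf2 and Klf13, and 0 in Klf4 and Klf6. None of the 5 windows held an AP-1 site (TGANTCA, 6.75% of windows) or a CArG box (1.47% of windows). A match of letters in a window says nothing of whether a factor bound there.

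**Figure D1:**
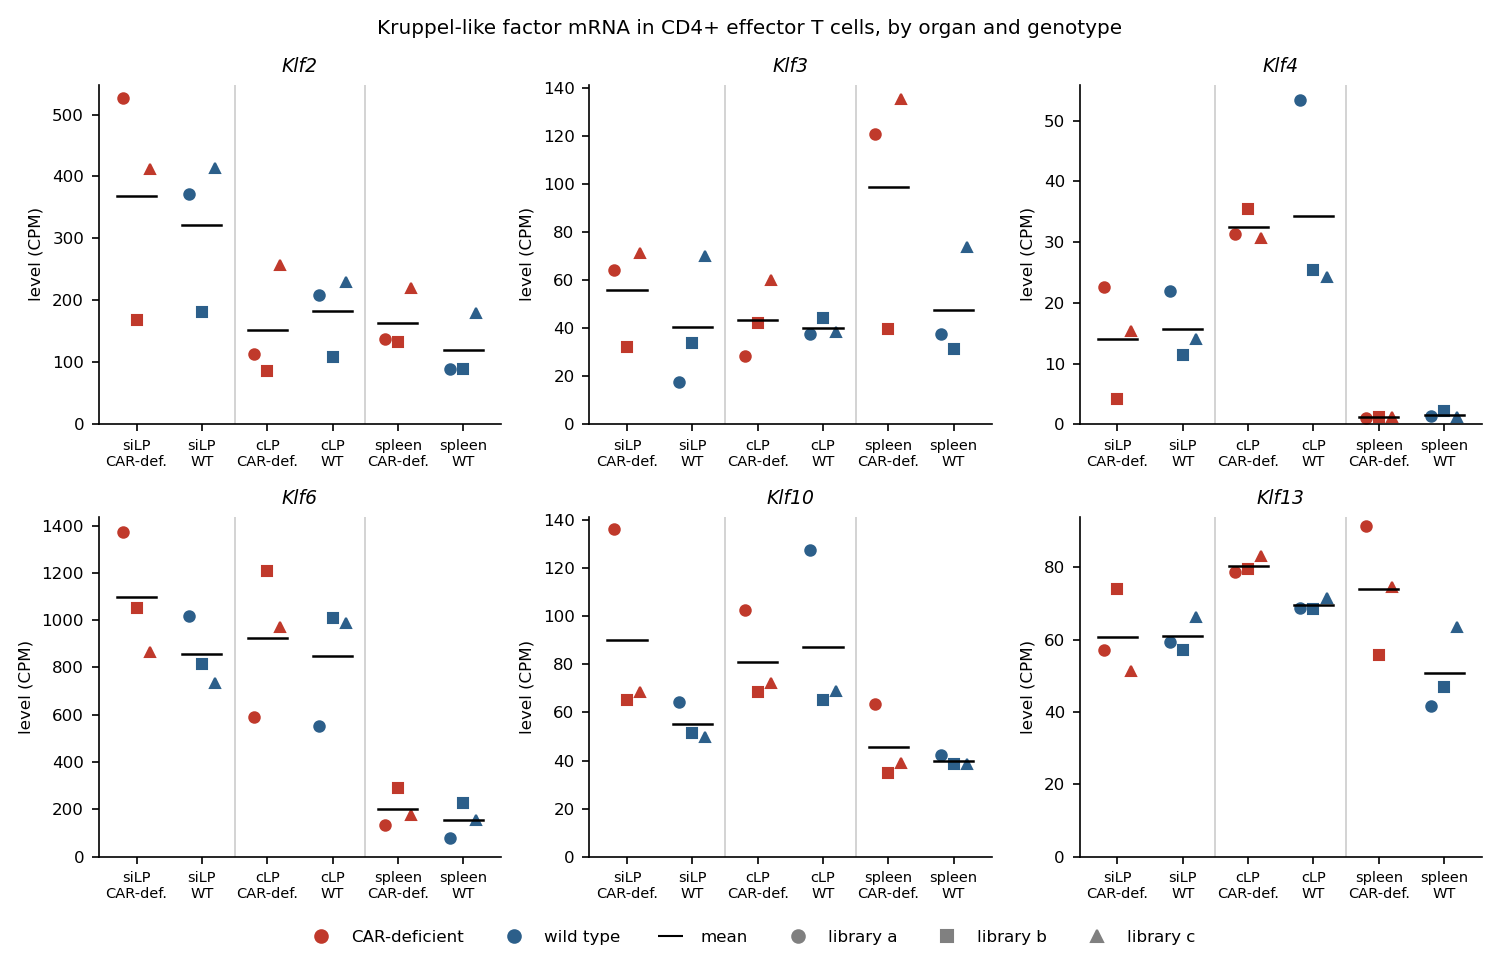
Level of each of the 6 genes in CPM (vertical axis, linear from 0) in every library, by organ and genotype (CAR-deficient in red left of wild type in blue), with black bars at group means. Klf4 and Klf6 have all 12 gut libraries above all 6 spleen libraries, Klf2 reaches its highest values in siLP, Klf10 has all cLP libraries above all spleen libraries, and Klf3 and Klf13 overlap between organs.

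Klf6 and Klf4 were the members with the clearest organ difference. Klf6 (ENSMUSG00000000078, chromosome 13, 5861482 to 5870394, plus strand) was above the other members in CPM, not scaled by length, in every gut library. In siLP it had 1372.7, 1052.8 and 865.4 CPM in CAR-deficient cells and 1018.9, 815.3 and 733.8 CPM in wild type cells. In cLP it had 591.3, 1206.3 and 973.3 CPM in CAR-deficient cells and 551.9, 1008.2 and 987.0 CPM in wild type cells. In the spleen it had 134.6, 292.0 and 176.7 CPM in CAR-deficient cells and 77.4, 227.9 and 156.3 CPM in wild type cells. Every gut library was above every spleen library, and the lowest gut values were the 2 a libraries of the colon.

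The siLP mean of Klf6 was 976.5 ± 228.8 CPM, the cLP mean 886.3 ± 258.4 CPM and the spleen mean 177.5 ± 74.8 CPM (SD, n = 6 each). On the log2 scale of the edgeR fit the siLP minus spleen difference was 2.46 ± 0.30 and the cLP minus spleen difference 2.33 ± 0.29 (SE), about 5.5-fold and 5.0-fold. Both gut sites held Klf6 at a like level, with a siLP minus cLP difference of 0.13 ± 0.28.

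Klf4 (ENSMUSG00000003032, chromosome 4, 55527143 to 55532466, minus strand) was present at a much lower level and differed more. In siLP it had 22.6, 4.17 and 15.4 CPM in CAR-deficient cells and 21.9, 11.4 and 14.0 CPM in wild type cells. In cLP it had 31.3, 35.4 and 30.6 CPM in CAR-deficient cells and 53.4, 25.4 and 24.2 CPM in wild type cells. In the spleen it had 1.11, 1.18 and 1.18 CPM in CAR-deficient cells and 1.38, 2.17 and 1.27 CPM in wild type cells. The 3 organs did not overlap, with siLP between the spleen and the colon in all libraries.

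The mean of Klf4 was 14.9 ± 6.87 CPM in siLP, 33.4 ± 10.6 CPM in cLP and 1.38 ± 0.40 CPM in the spleen (SD, n = 6 each). The log2 difference was 3.44 ± 0.41 for siLP minus spleen and 4.61 ± 0.43 for cLP minus spleen, about 10.9-fold and 24.4-fold. For siLP minus cLP it was -1.17 ± 0.37, and 58 of the 14876 genes (0.39%) had all 6 siLP libraries below all 6 cLP libraries as Klf4 did. No gene passed the threshold between siLP and cLP in edgeR (0%), where 1240 had an unadjusted p under 0.05. DESeq2 called 217 genes, with no member among them. Voom with quality weights called 434, with Klf4 the only member among them.

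The threshold used throughout is a Benjamini-Hochberg adjusted p of 0.05 over all tested genes in edgeR's quasi-likelihood test. Between gut and spleen 2 of the 6 members, Klf4 and Klf6, passed it, beside 268 of all tested genes (1.8%). The same 2 passed in siLP against spleen, where 126 genes did (0.847%). In cLP against spleen Klf10 passed too, making 3 members beside 456 genes (3.07%). All 12 gut libraries exceeded all 6 spleen libraries for 137 tested genes (0.921%), Klf4 and Klf6 among them. Since the 6 genes were chosen with these values known, their counts are given beside the background as a description and nothing is read from them. By log2 difference between gut and spleen Klf4 ranked 277 and Klf6 693 of 14876.

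Klf4 and Klf6 were higher in the gut within each genotype as well. In siLP against spleen the log2 difference of Klf4 was 3.60 ± 0.58 in CAR-deficient cells and 3.29 ± 0.57 in wild type cells. That of Klf6 was 2.45 ± 0.42 in CAR-deficient cells and 2.48 ± 0.42 in wild type cells. In cLP against spleen Klf4 differed by 4.81 ± 0.61 in CAR-deficient and 4.41 ± 0.60 in wild type cells, and Klf6 by 2.20 ± 0.41 in CAR-deficient and 2.46 ± 0.42 in wild type cells. Over the 18 fits that left out 1 library each, the call of Klf4 in siLP held in 14 for CAR-deficient and in 7 for wild type cells, and that of Klf6 in 15 for CAR-deficient and in 12 for wild type cells. In cLP the call of Klf4 held in all 18 for both genotypes, and that of Klf6 in 14 for CAR-deficient and in 15 for wild type cells. The genes called in all were 32 (0.215%) in CAR-deficient siLP, 28 (0.188%) in wild type siLP, 72 (0.484%) in CAR-deficient cLP and 56 (0.376%) in wild type cLP. Leaving out 1 library brought these counts to as few as 5 in CAR-deficient siLP, 3 in wild type siLP, 10 in CAR-deficient cLP and 13 in wild type cLP, while DESeq2 called 225 in CAR-deficient and 138 in wild type siLP.

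**Figure D2:**
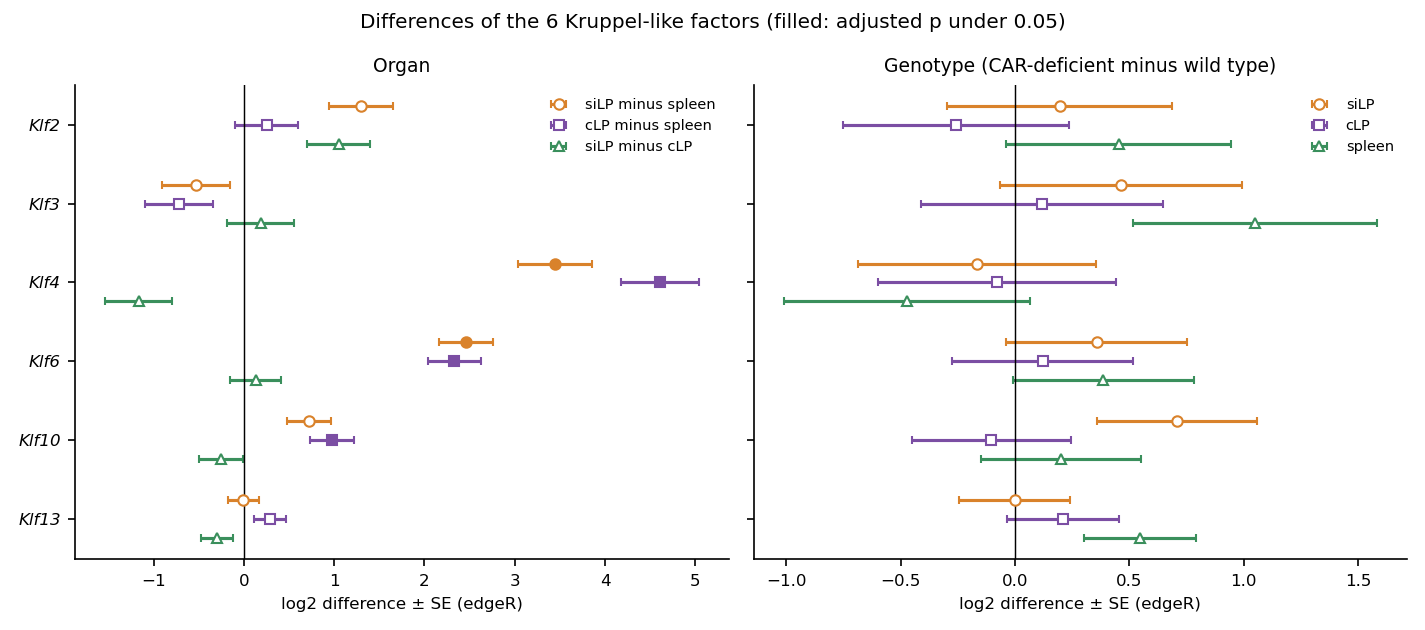
Log2 difference ± SE (horizontal axis) of each gene from the edgeR fit, between organs (left) and between genotypes within each organ (right), with filled symbols for an adjusted p under 0.05. Klf4 and Klf6 lie furthest right in both gut sites, and every genotype difference is an open symbol.

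Markers of other cell types also differed between organs in these sorted samples, and their part in the Klf4 and Klf6 differences was not tested. The 9 endothelial and stromal markers summed to 67.5 to 380.4 CPM in siLP, 104.8 to 1180.0 CPM in cLP and 47.9 to 82.1 CPM in the spleen, where Col3a1 was at 0 in all libraries. Of the 6 tested, 3 rose in cLP and 1, the fibroblast proteoglycan gene Dcn, in siLP. The 11 epithelial markers summed to 4.73 to 26 CPM in siLP, 20.9 to 236.7 CPM in cLP and 7.70 to 13.0 CPM in the spleen. Of the 9 tested, 2 rose in cLP and none in siLP, with Vil1 and Krt20 at 0 in siLP, Fabp1 at 0 in cLP, and Krt20, Fabp1 and Klf5 at 0 in the spleen.

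The 8 macrophage, monocyte and neutrophil markers summed to 54.1 to 161.2 CPM in siLP, 19.7 to 92.0 CPM in cLP and 19.3 to 48.5 CPM in the spleen, with S100a9 at 0 in cLP. Their median sum was 66.4 CPM in the gut and 25.1 CPM in the spleen, and 1 of 8 fell between gut and spleen. Gene by gene they did not move together. The median log2 difference of the 8 was -0.65 for gut minus spleen, with 4 above 0. For cLP minus spleen it was -1.12, with 2 above 0. Among the 137 tested genes (0.921%) with every gut library above every spleen library, as Klf4 and Klf6, was Lyz2, the lysozyme gene of macrophages. Named after its values were seen, it had 7.92 to 118.6 CPM in the gut and 0 to 7.44 CPM in the spleen. Its log2 difference was 3.59 ± 0.95 and did not pass (edgeR adjusted p = 0.0737), but DESeq2, voom, the fit without the filter and that without the 6 a libraries called it higher. The 6 erythroid markers summed to 0.54 to 12.1 CPM in the gut and 70 to 1211.1 CPM in the spleen, and 3 fell in the gut. In bulk samples such as these, fewer cells of a type and less RNA per cell cannot be told apart.

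Across the 6 cLP libraries, Dcn ran from 0.169 to 1048.9 CPM and Klf4 from 24.2 to 53.4 CPM. The CAR-deficient library b, at the top of the Dcn range, had 35.4 CPM of Klf4. In rising order of Dcn, Klf6 had 551.9, 591.3, 1008.2, 973.3, 987.0 and 1206.3 CPM in these libraries. The lowest values, 551.9 and 591.3 CPM, were those of the a libraries, which stood apart in every group. In siLP, in rising order of Dcn, Klf6 had 733.8, 815.3, 865.4, 1052.8, 1372.7 and 1018.9 CPM, and there the a libraries came last. A stromal part in this was not tested. The wild type library a had the highest Klf4 level, the lowest Dcn level and, at 92.0 CPM, the highest macrophage, monocyte and neutrophil sum of the 6. Between the gut sites the order was the other way. The median of that sum was 77.9 CPM in siLP and 41.9 CPM in cLP, where Klf4 was higher. The siLP wild type library b had the highest sum of all libraries, 161.2 CPM, with 11.4 CPM of Klf4. A part of such cells in the Klf4 level was not tested. These libraries are named for their values, after those were seen.

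**Figure D3:**
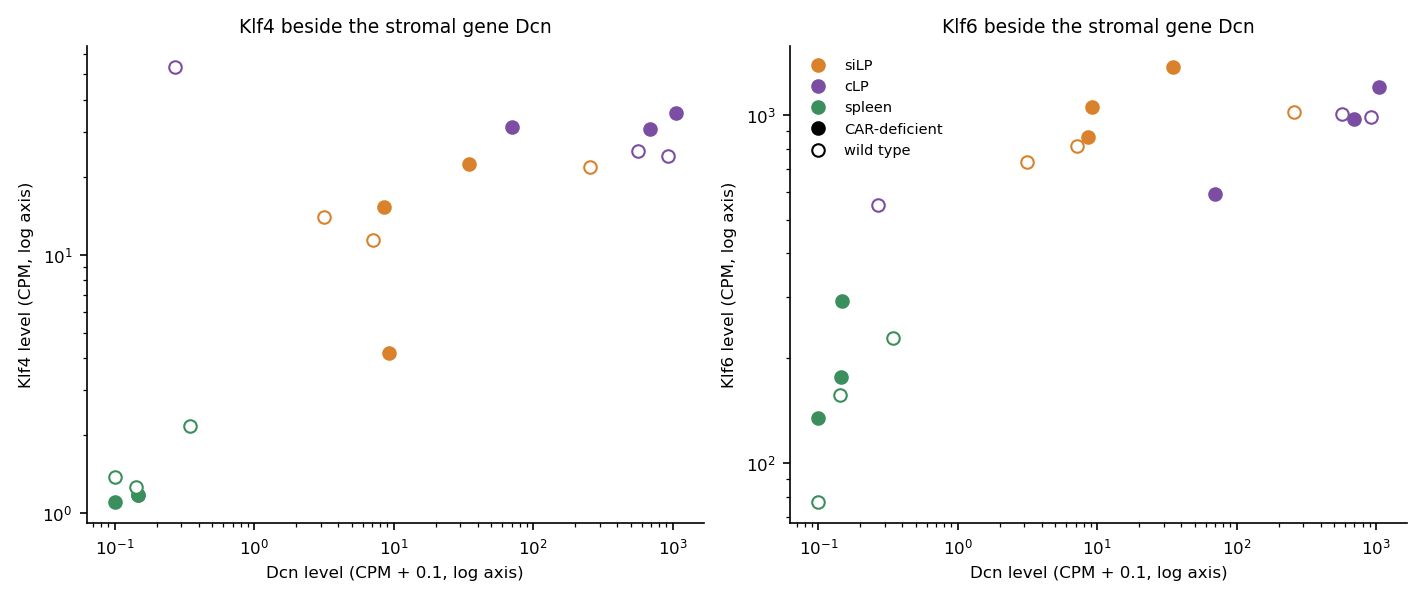
Level of Klf4 (left) and Klf6 (right) in CPM against that of the stromal gene Dcn in CPM plus 0.1 (both axes log), 1 point per library, coloured by organ and filled for CAR-deficient cells. The wild type cLP library with 0.169 CPM of Dcn has the highest Klf4 level, 53.4 CPM. Its Klf6 level, 551.9 CPM, is the lowest of the 12 gut libraries and above all 6 spleen libraries.

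Klf2 had its highest values in siLP. Klf2 (ENSMUSG00000055148, chromosome 8, 72319033 to 72321656, plus strand) had 526.5, 169.1 and 411.7 CPM in CAR-deficient siLP cells and 371.9, 181.8 and 413.1 CPM in wild type siLP cells. In cLP it had 113.6, 86.8 and 256.7 CPM in CAR-deficient cells and 209.2, 107.9 and 229.9 CPM in wild type cells. In the spleen it had 137.2, 133.2 and 220.2 CPM in CAR-deficient cells and 89.5, 89.9 and 179.2 CPM in wild type cells. The 2 siLP b libraries reached into the range of the other organs, and the other 4 siLP libraries were above all libraries of cLP and spleen.

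The mean of Klf2 was 345.7 ± 141.7 CPM in siLP, 167.4 ± 72.9 CPM in cLP and 141.5 ± 51.1 CPM in the spleen (SD, n = 6 each). Its log2 difference was 1.30 ± 0.35 for siLP minus spleen, 0.25 ± 0.35 for cLP minus spleen and 1.05 ± 0.35 for siLP minus cLP, and none of these passed the threshold. Klf2 did pass in siLP against spleen, at 1.25, in a fit with a term for library a, b or c, and at 1.29 in DESeq2. Without the 6 a libraries the siLP minus spleen difference was 0.93.

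Klf10, the TGF-beta inducible member, was moderately higher in the gut. Klf10 (ENSMUSG00000037465, chromosome 15, 38291463 to 38300706, minus strand) had 136.4, 65.2 and 68.4 CPM in CAR-deficient siLP cells and 64.2, 51.4 and 49.9 CPM in wild type siLP cells. In cLP it had 102.6, 68.6 and 72.2 CPM in CAR-deficient cells and 127.5, 65.2 and 68.9 CPM in wild type cells. In the spleen it had 63.4, 35.0 and 39.0 CPM in CAR-deficient cells and 42.5, 38.6 and 38.5 CPM in wild type cells. All cLP libraries were above all spleen libraries, as for 344 tested genes (2.31%), and siLP overlapped with the spleen.

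The a library was the highest of its group in all 6 groups for Klf10, so the spread of this gene ran along the feature that sets those libraries apart. The log2 difference was 0.98 ± 0.25 for cLP minus spleen and 0.72 ± 0.25 for siLP minus spleen. The cLP call held in 2 of the 18 fits that left out 1 library each. It was lost, at 0.97, without the filter on low counts. It held, at 0.88, without the 6 a libraries.

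Klf3, the CtBP-binding repressor, varied most within groups. Klf3 (ENSMUSG00000029178, chromosome 5, 64803388 to 64832901, plus strand) ran from 17.6 to 71.2 CPM in siLP, from 28.5 to 59.9 CPM in cLP and from 31.6 to 135.6 CPM in the spleen. The 2 highest values, 121.0 and 135.6 CPM, were CAR-deficient spleen libraries, whose remaining library had 39.7 CPM, against 37.6, 31.6 and 73.8 CPM in wild type spleen cells. The gut minus spleen difference was -0.62 ± 0.32 and did not pass, and it ranged from -0.82 to -0.40 over the fits that left out 1 library.

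Klf13 was the steadiest member. Klf13 (ENSMUSG00000052040, chromosome 7, 63886351 to 63938915, minus strand) lay between 51.3 and 74.1 CPM in siLP, between 68.6 and 83.0 CPM in cLP and between 41.6 and 91.5 CPM in the spleen. Its gut minus spleen difference was 0.14 ± 0.15. The pooled SD of log2 CPM within groups was 0.23 for Klf13, against 0.41 for Klf10, 0.52 for Klf6, 0.63 for Klf4, 0.67 for Klf2 and 0.71 for Klf3.

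Levels can be set against each other between genes only per transcript length, here as CPM per 1000 bases of merged exons in GENCODE vM21. The exons of Klf2 add up to 1847 bases, those of Klf4 to 3049 and those of Klf6 to 4391. On this scale Klf6 was the highest of the 6 in 10 of the 12 gut libraries, with Klf2 above it in the 2 siLP c libraries. In the spleen Klf2 was the highest in 5 of the 6 libraries and Klf6 in the other, a wild type one. Dividing by the longest transcript instead of all exons, a choice added after the data were seen, gave the same counts of libraries.

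Of the summed CPM per kb of the 6 genes, Klf6 took a median of 48.9% in siLP (39.6 to 66.4%), 56.7% in cLP (42.0 to 75.5%) and 22.0% in the spleen (20.6 to 43.4%). Klf2 took 43.5% in siLP (25.4 to 53.0%), 28.7% in cLP (12.9 to 37.8%) and 54.2% in the spleen (40.7 to 62.4%). Klf4 took 1.12% in siLP, 2.88% in cLP and 0.26% in the spleen. Klf6 and Klf2 together made up most of the summed level of these 6 genes in all 18 libraries. Klf6 led in all 6 cLP libraries and Klf2 in all but 1 of the spleen.

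**Figure D4:**
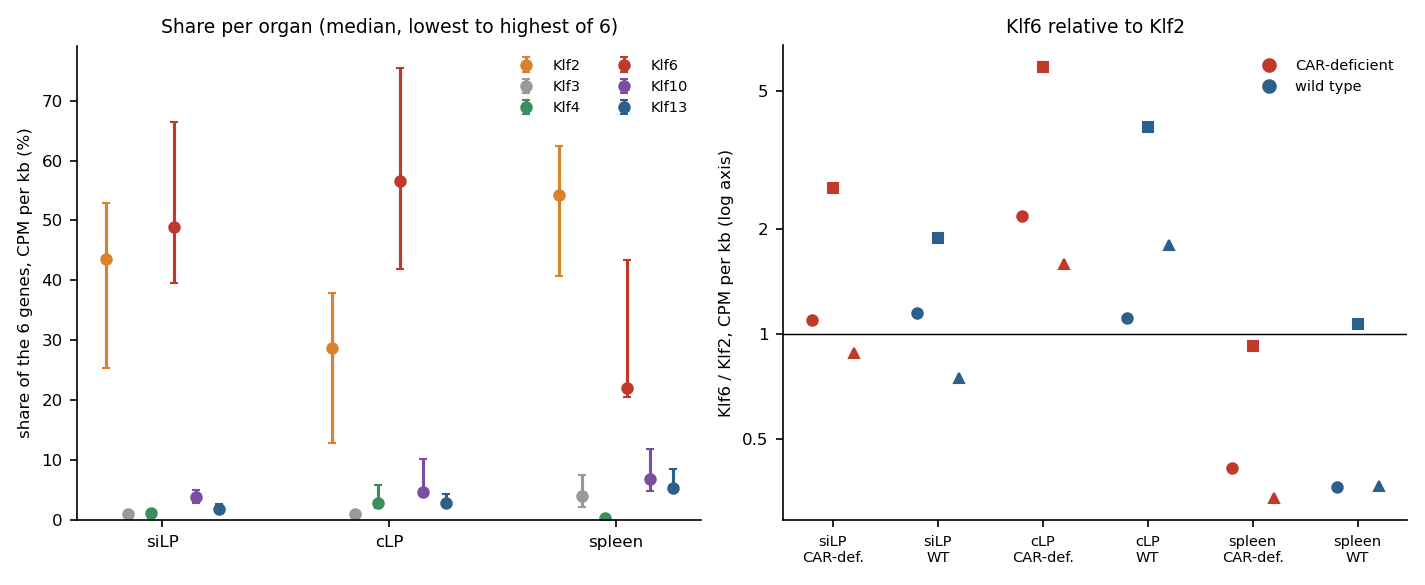
Left, the share of each gene in the summed CPM per kb of the 6 genes in percent, by organ, with points at the median and bars from the lowest to the highest of 6 libraries. Right, the ratio of Klf6 to Klf2 in CPM per kb per library (log axis, line at 1; circles, squares and triangles for libraries a, b and c), above 1 in 10 of the 12 gut libraries and in 1 of the 6 spleen libraries.

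Between genotypes none of the 6 members passed the threshold in edgeR, in any organ or in the average over organs. At an unadjusted p under 0.05 the only member was Klf13 in the spleen, and neither DESeq2 nor voom with quality weights called a member. Averaged over organs, the CAR-deficient minus wild type log2 difference was 0.13 ± 0.28 for Klf2, 0.54 ± 0.31 for Klf3, -0.24 ± 0.30 for Klf4, 0.29 ± 0.23 for Klf6, 0.27 ± 0.20 for Klf10 and 0.25 ± 0.14 for Klf13. None of these exceeded 2 SE. A p that misses the threshold does not show that the genotypes were alike, and with these errors a difference of that size could not be told from 0.

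Over all tested genes, the genotype comparison called 0 genes in siLP (0%), 0 in cLP (0%) and 0 in the spleen (0%) by edgeR, and 2 in the average over organs (0.0134%). At an unadjusted p under 0.05 there were 641 genes in siLP, 363 in cLP and 290 in the spleen. DESeq2 called 35, 12 and 17 genes in these organs, and voom called 2, 3 and 5. The difference of the genotype effect between gut and spleen called 0 genes (0%) in edgeR, with 228 at an unadjusted p under 0.05, 9 in DESeq2 and 0 in voom.

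A few members had genotypes that did not overlap within 1 organ. Klf10 was higher in all 3 CAR-deficient siLP libraries than in all 3 wild type ones, with a log2 difference of 0.71 ± 0.35, as 566 tested genes were (3.8%). Klf13 was higher in all 3 CAR-deficient cLP libraries, at 78.8, 79.7 and 83.0 CPM, than in the wild type ones, at 68.7, 68.6 and 71.6 CPM, as 608 tested genes were (4.09%). Klf4 was lower in all 3 CAR-deficient spleen libraries than in the wild type ones, as 459 tested genes were (3.09%). In the spleen, Klf3 differed by 1.05 ± 0.53 and Klf13 by 0.54 ± 0.25.

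Most of the rest of the family was thinly expressed, but the siLP means of Klf11 (15.8 CPM) and Klf7 (15.5 CPM) were near that of Klf4 (14.9 CPM). Of the 11 other Kruppel-like factor genes, 3 reached 5 CPM in the mean of any group, 8 were tested and none passed the threshold between gut and spleen in edgeR, where 2 had an unadjusted p under 0.05. DESeq2 called 2 of them and voom 3. Klf11, a close relative of Klf10, ran from 3.92 to 25.8 CPM in siLP, from 1.11 to 24.5 CPM in cLP and from 0 to 5.89 CPM in the spleen, a log2 difference between gut and spleen of 2.51 ± 0.90 (edgeR adjusted p = 0.207). Klf11 passed the threshold in 2 of the 26 alternative settings run. Klf7 ran from 5.07 to 32.0 CPM in the gut and from 2.27 to 13.1 CPM in the spleen (0.69 ± 0.41). Klf9 ran from 0.048 to 5.98 CPM in the gut and from 0.18 to 5.11 CPM in the spleen (1.27 ± 0.82).

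The related SP factors, which bind the same GC boxes, differed little, with 3 of the 4 tested below 0 in the gut minus spleen difference. Of 9 SP genes 4 were tested and none passed between gut and spleen in edgeR, at an unadjusted p under 0.05, in DESeq2 or in voom. The log2 difference was -0.44 ± 0.22 for Sp1, -0.32 ± 0.28 for Sp2, 0.22 ± 0.19 for Sp3 and -0.40 ± 0.25 for Sp4. In cLP against spleen voom called 1 of them, Sp1, lower. The median of the 4 was -0.36, against 0.85 for the 8 other Kruppel-like factors and -0.01 for all tested genes.

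The genes of recirculation, among them S1pr1 downstream of Klf2, lay mostly lower in the gut. Their median log2 difference was -0.27 against -0.01 for all tested genes, with 1 of the 8 above 0. All 8 were tested, and in edgeR 1 rose between gut and spleen and none fell, where 268 of all tested genes were called (1.8%). The one that rose was Cd69, the activation antigen that binds S1pr1 and holds T cells in tissue, with 1188.1 to 5030.0 CPM in siLP, 1785.9 to 4097.9 CPM in cLP and 163.1 to 432.8 CPM in the spleen. Its log2 difference was 3.21 ± 0.35 (edgeR adjusted p = 9.78e-05).

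The exit receptor S1pr1 lay between 14.7 and 109.7 CPM in the gut and between 53.3 and 124.3 CPM in the spleen, a log2 difference of -0.69 ± 0.39 that did not pass (edgeR adjusted p = 0.486). The homing receptor gene Ccr7 (-1.41 ± 0.94) and the integrin gene Itgb7 (-0.20 ± 0.42) did not pass either. Klf2 itself was highest in siLP, where S1pr1 differed from the spleen by -0.51 ± 0.46. S1pr5, another S1P receptor gene, lay between 0 and 8.56 CPM in the gut and between 0 and 117.6 CPM in the spleen (-3.52 ± 1.06, edgeR adjusted p = 0.118). It was called lower in the gut by voom and without the 6 a libraries, but not by DESeq2. Levels of messenger RNA do not show how much Klf2 protein or S1pr1 protein the cells carried.

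Upstream of Klf2, none of the 15 genes of the Foxo1 axis passed between gut and spleen in edgeR, with 1 at an unadjusted p under 0.05 and none called by DESeq2 or voom. The 2 with the smallest p were Mef2d, a MEF2 family factor (0.59 ± 0.24), and Lef1, a factor of naive T cells (-0.37 ± 0.19). Of 10 corepressors and partners of Kruppel-like factors none passed by any of these tools or at an unadjusted p under 0.05. The acetyltransferase gene Kat2b (-0.39 ± 0.29) and the deacetylase gene Hdac2 (-0.36 ± 0.28) had the smallest p.

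Beside 268 tested genes called between gut and spleen (1.8%), 3 of 12 TGF-beta pathway genes, the setting in which Klf10 is known, rose. These were Tgif1, a corepressor of SMAD proteins (3.54 ± 0.34, adjusted p = 3.78e-05), Skil, another SMAD corepressor (3.02 ± 0.37, adjusted p = 0.000249), and Smad7, the inhibitory SMAD (1.77 ± 0.35, adjusted p = 0.0119), all by edgeR. None fell in edgeR. Smad3 was named after its values were seen, and the share of all genes split between organs as it was is not known here. This signal-carrying SMAD had 12.04 to 30.38 CPM in the gut and 31.64 to 49.02 CPM in the spleen. Its log2 difference was -0.69 ± 0.18 (edgeR adjusted p = 0.0687), and it was called lower by DESeq2, by voom and in the fit with a term for library a, b or c. Tgif1 had 56.9 to 242.1 CPM in the gut and 4.69 to 17.3 CPM in the spleen. The list median was 0.34, against -0.01 for all tested genes.

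Of 12 genes of quiescence and cell cycle braking, 5 rose and none fell between gut and spleen. Of the 14876 tested genes 219 rose and 49 fell, together 1.8%. The gene lists were chosen with earlier results of these data known, so their counts are a description. Tob1, an antiproliferative factor of resting T cells, had 21.4 to 110.4 CPM in the gut and 6.63 to 31.4 CPM in the spleen (1.81 ± 0.25, edgeR adjusted p = 0.000775). Its relatives Btg2 (1.63 ± 0.22) and Tob2 (1.52 ± 0.26) rose as well, as did Tsc22d3, the glucocorticoid-induced leucine zipper gene (1.89 ± 0.32). Btg2 was also the only gene of these lists that passed between genotypes, at 1.66 ± 0.19 in the average over organs (edgeR adjusted p = 0.00362). It was higher in the CAR-deficient than in the wild type libraries of the same organ in all 3 organs, without overlap. In single organs such a split held for 566 tested genes in siLP (3.8%) and 608 in cLP (4.09%). The share of genes split so in all 3 organs was not counted, so nothing further is read from it.

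Immediate early genes, which cells switch on soon after stimulation, were higher together in the gut than in the spleen libraries. When they were switched on, in the tissue or after it was taken, was not tested. Of 14 such genes, all tested, 11 rose between gut and spleen and none fell, beside 268 of all tested genes called (1.8%). Their median log2 difference was 2.38 against -0.01 for all tested genes. In siLP 11 rose, beside 126 of all tested genes called (0.847%), and in cLP 10, beside 456 (3.07%). Without the 6 a libraries 4 rose in siLP and 10 in cLP. Between gut and spleen 3 rose in CAR-deficient libraries alone and 2 in wild type libraries alone, in fits that called far fewer genes in all. Nr4a1, a receptor-induced orphan nuclear receptor, had 43.9 to 275.7 CPM in the gut and 1.43 to 7.43 CPM in the spleen (5.04 ± 0.45, edgeR adjusted p = 1.68e-05). Fosb, an AP-1 subunit, differed by 3.86 ± 0.38 and Nr4a2 by 3.82 ± 0.51. Atf3, a stress-induced factor, had 9.06 to 96.8 CPM in the gut and 0 to 0.78 CPM in the spleen.

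**Figure D5:**
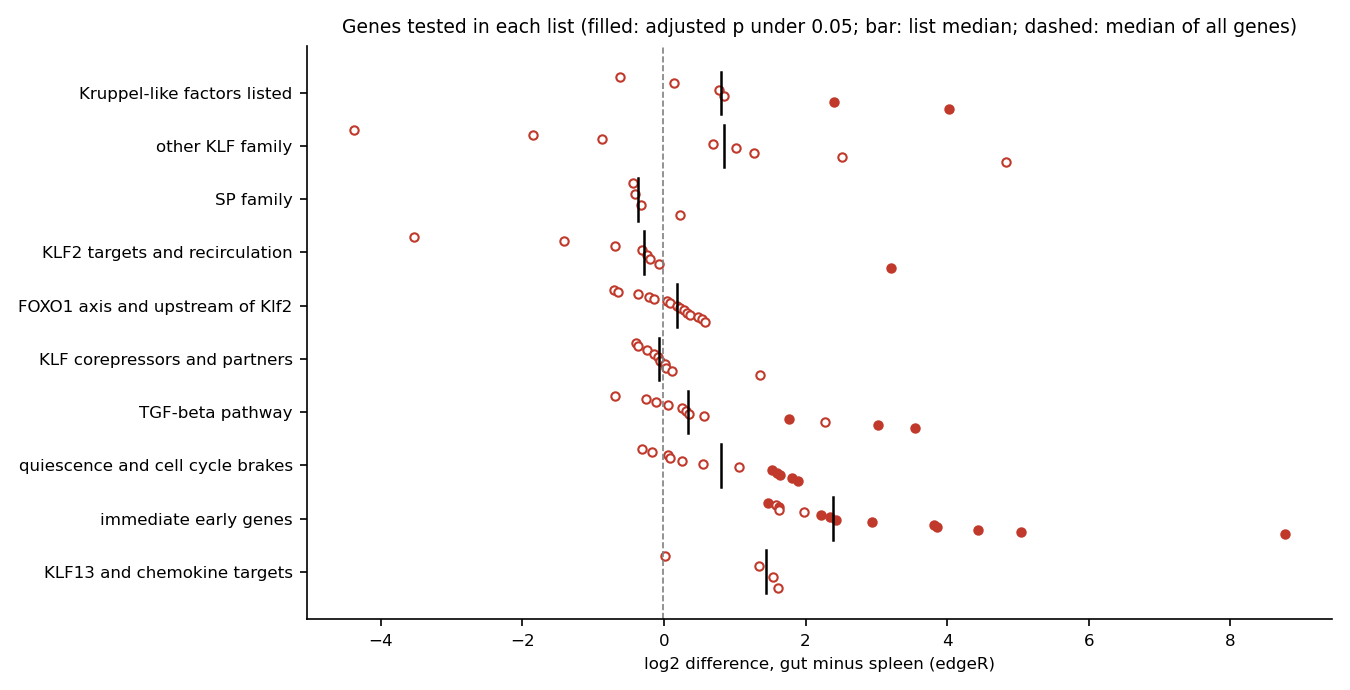
Log2 difference between gut and spleen (horizontal axis) of each tested gene, by list, with filled points for an adjusted p under 0.05, black bars at list medians and a dashed line at the median of all tested genes (-0.01). The 14 immediate early genes all lie right of 0 with a median of 2.38, and the 6 Kruppel-like factors spread from -0.62 to 4.03.

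The chemokine genes linked to Klf13 did not pass in the edgeR fit of group means. Ccl5 lay at 3138.7 to 32655.0 CPM in the gut and 3222.4 to 25317.5 CPM in the spleen (0.02 ± 0.48). Ccl4 differed by 1.61 ± 0.74 and Ccl3 by 1.54 ± 0.80. Of the list of 4, none passed in edgeR, 1 had an unadjusted p under 0.05, and neither DESeq2 nor voom called any. With a term for library a, b or c, edgeR called Ccl3 (1.42, adjusted p = 0.0071) and Ccl4 (1.55, adjusted p = 0.000547) higher in the gut.

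The genes whose log2 CPM followed a member most closely over the 18 libraries are given as a description, since the libraries share organs and depth. For Klf4 they were Kdm6b (r = 0.970), Nfkbiz (0.951) and Atf3 (0.946), for Klf6 Dusp1 (0.956), Bhlhe40 (0.941) and Fos (0.941), and for Klf10 Chd7 (0.915), Zfp36l2 (0.913) and Tob2 (0.901). For Klf2 the highest value was 0.825 (Gm47145) and for Klf13 0.895 (Pgm2l1). Between Klf4 and Klf6, both higher in every gut library than in every spleen library, the value was 0.840 over the 18 libraries. It was 0.086 once each group was centred on its own mean, which takes out organ and genotype together.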

How the data were processed

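Messenger RNA of sorted CD4+ effector T cells was sequenced in 18 libraries, with SMART-Seq v4 cDNA and NEBNext Ultra II DNA libraries, per the labels. The submitters' processing notes name Salmon, DESeq2 and mm10, with no versions. The authors deposited, per the file headers, an estimated count for each gene and library. The other 37 columns (abundance, length and an import flag) were not used, since 1 column per library was kept. Levels were planned in TPM and are given as CPM per kb of merged exons instead. Columns marked CD45.1 negative were taken as CAR-deficient by elimination, and a, b and c are names in column order.

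Estimated counts were rounded to whole numbers. Genes passing edgeR's filterByExpr (14876) were scaled by TMM and fitted with 6 group means over all 18 libraries by glmQLFit. Comparisons were tested two-sided with glmQLFTest, adjusted by Benjamini-Hochberg over all tested genes, with a threshold of 0.05. The SE is the size of the log2 fold change divided by the square root of F. CPM use TMM-scaled library sizes, and a level given as mean ± SD is over libraries. A floor of 3 counts is at most 0.153 CPM by total count and covers counting error only, since PCR copies carry no molecular identifiers. Likeness is Pearson's r on log2 CPM with a prior count of 2. Gene positions are from GENCODE vM21 on GRCm38, and promoter windows from RefSeq on GRCm38.p6. The tools were edgeR 4.0.16, DESeq2 1.42.0 and limma 3.58.1 under R 4.3.3.

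The 6 genes, the gene lists and the tests were chosen with earlier results of these data known. Named genes are the 6 members, other KLF and SP genes with at least 5 CPM in a group mean, up to 4 passing genes of each list with the smallest p (or 2 where none passed), S1pr1, Ccr7, Itgb7, Cd69 and Ccl5 in every case, and the 3 genes most like each member. The longest of these sets are shortened in the text, and a few genes under this rule are not reported here. The fit was run on simulated counts with known changes, which had less spread between libraries than the data. That run therefore does not show how well the fit works on these libraries. Alternatives were DESeq2 size factors and Wald test, voom with quality weights, no filter, each genotype alone, the column ending as a term, and leaving out the a libraries or each library in turn.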

Additional observations from a re-analysis of the deposited data

How the results depend on the processing

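No paired analysis was possible because the columns carry no replicate numbers. The fit with a term for library a, b or c goes by column order and is no pairing from the labels. The planned fits on log2(TPM + 1) and log2(TPM + 0.1), and levels over the deposited effective length, were not run, since those columns were not used. Klf4 and Klf6 passed between gut and spleen in every setting run, with 3.91 to 4.16 for Klf4 and 2.26 to 2.59 for Klf6 over the 18 fits that left out 1 library each. Klf10 passed there too without the a libraries, with voom and with DESeq2. With a term for library a, b or c, 4 members passed, Klf10 and Klf2 included. Klf13 gave -0.07 in CAR-deficient and 0.38 in wild type libraries alone without passing.

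The count of genes past the threshold for gut minus spleen was 526 with the library term, 25 in CAR-deficient and 28 in wild type libraries alone, 1019 with voom, 835 with DESeq2, and 142 to 257 leaving out 1 library, lowest without the wild type spleen library c (169 without a, 167 without b, and 170 without the CAR-deficient c). For siLP minus spleen it was 243 with the library term, 251 with voom, 400 with DESeq2 and 78 to 130 leaving out 1 library, with 82 without the CAR-deficient spleen library c and 78 without the wild type c. For cLP minus spleen it was 747 with the library term, 749 without the a libraries, 1828 with voom, 1054 with DESeq2 and 207 to 485 leaving out 1 library, with 207 to 244 without any 1 of the 6 spleen libraries and 272 without either cLP library b. For the genotype average it was 10 without the filter, 7 with the library term, 11 with voom, 123 with DESeq2 and 1 to 3 leaving out 1 library, Btg2 passing in all of them. The causes were not tested.

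For Ccl5, gut minus spleen turned to -0.0009 in CAR-deficient libraries alone and ranged from -0.22 to 0.48 leaving out 1 library. It did not pass in any setting. With about 500 cells per library and a biological coefficient of variation of 0.791, small differences between groups of 3 could not be told from 0.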
